A study of Mus musculus with 17 samples.

Results

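A set of 6 miRNAs that are abundant in red blood cells was followed in mouse serum by real-time PCR: mmu-miR-451a, mmu-miR-144-3p, mmu-miR-16-5p, mmu-miR-15b-5p, mmu-miR-185-5p and mmu-miR-3107-5p, called by these names without the prefix from here on. They were chosen by assay name, as 6 of the 357 miRNA assays of the panel, and miR-3107-5p has the same mature sequence as miR-486-5p. All 6 were detected in all 17 mice. The sera came from 7 AT-ATX mice with spontaneous tumors, 7 AT-ATX mice without tumors and 3 healthy wild-type mice of the FVB/N strain. AT-ATX mice carry a transgene for Autotaxin, which is secreted and generates lysophosphatidic acid, a lipid that signals between cells, so both transgenic groups carry it and differ in tumors. The promoter of the transgene, the background strain of the transgenic mice, the site of the tumors and the ages are not given in the sources used here. Each sample is labelled as 1 mouse, and blood was taken at necropsy.

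The mature red blood cell has no nucleus but keeps a large store of small RNAs, and serum receives them whenever red blood cells break, in the body or during blood collection. miR-451a and miR-144-3p come from neighboring hairpins that the erythroid factor GATA1 switches on as red blood cells form. miR-451a is unusual in being cut by Argonaute 2 in place of Dicer, and it restrains Ywhaz, whose protein limits antioxidant gene expression in erythroblasts. miR-16-5p and miR-15b-5p belong to a family that represses cell cycle and survival genes such as cyclins and Bcl2 and is made in many tissues. miR-486-5p comes from the gene for ankyrin 1, a protein of the membrane skeleton of red blood cells and of muscle.

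The mature sequences are shown because they separate the members by target specificity, with the seed (bases 2 to 8, counted from the 5′ end) in capitals. They are from RefSeq on build GRCm38.p6, which held 4 of the 6 members by name. A pair of further family members measured on the panel, miR-15a-5p and miR-195a-5p, are added because they share a seed with miR-16-5p and come back in the results.
miR-451a: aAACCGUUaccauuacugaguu
miR-144-3p: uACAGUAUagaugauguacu
miR-16-5p: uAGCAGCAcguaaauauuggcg
miR-15b-5p: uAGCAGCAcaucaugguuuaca
miR-15a-5p: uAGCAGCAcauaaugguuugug
miR-195a-5p: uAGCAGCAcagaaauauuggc
miR-16-5p and miR-15b-5p share the seed AGCAGCA, and miR-451a and miR-144-3p each have a seed of their own, although they are transcribed together. The hairpin of Mir451a is shown with its mature miRNA in capitals, since the mature strand runs through the loop of this short hairpin.
Mir451a: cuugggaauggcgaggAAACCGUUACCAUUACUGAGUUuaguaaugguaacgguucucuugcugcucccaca

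On the same build, mature miR-451a lies at chr11:78073186-78073207 and mature miR-144-3p at chr11:78073047-78073066, both on the plus strand, and their hairpins are 99 bases apart. Mature miR-15b-5p lies at chr3:69009775-69009796 on the plus strand. Mature miR-16-5p has 2 origins, at chr3:69009918-69009939 on the plus strand and at chr14:61631936-61631957 on the minus strand. The hairpins of Mir15b and Mir16-2 are 66 bases apart within the span of Smc4, a condensin subunit gene, and Mir16-1 lies within that of the long noncoding RNA Dleu2. Mir185 lies within the span of Tango2, and Mir486 and Mir3107 overlap each other within that of Ank1. An assay for miR-16-5p thus reads 2 loci, and an assay for miR-3107-5p also reads miR-486-5p.

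The level of a miRNA is given on a log2 scale as the quantification cycle (Ct) averaged over the 252 miRNA assays that every mouse had, minus its own Ct, so a higher level means more template relative to the panel. By the mean over 17 mice, mmu-miR-451a was the most abundant of 338 tested assays at 10.23, and mmu-miR-16-5p the next at 9.58. mmu-miR-144-3p ranked 5 at 6.62 and mmu-miR-3107-5p ranked 8 at 5.85, while mmu-miR-15b-5p ranked 53 at 2.71 and mmu-miR-185-5p ranked 60 at 2.39. Levels of different miRNAs also carry the efficiency of each assay, so this order is that of the readings. In 16 of 17 mice miR-451a read higher than miR-16-5p, the exception being wild-type replicate 1. In 16 of 17 mice miR-144-3p read higher than miR-3107-5p, the exception being tumor replicate 5. miR-15b-5p read higher than miR-185-5p in 10 of 17 mice, so these neighbors in the order were not separated.

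Of the 357 miRNA assays, 312 to 356 were detected in tumor mice, 330 to 356 in tumor-free mice and 340 to 355 in wild-type mice. The shared assays had an average Ct of 29.8 ± 1.18 in tumor mice, 29.4 ± 0.83 in tumor-free mice and 28.4 ± 1.50 in wild-type mice (SD, n = 7, 7 and 3). The mean Ct of the 5 synthetic spike-in assays was 25.6 ± 0.31, 25.4 ± 0.35 and 25.5 ± 0.27 in the same groups. One tumor sample, replicate 5, has a question mark in its label and was kept in its labelled group. In 4 sera, tumor replicate 1 and tumor-free replicates 4, 5 and 7, the deposited values carry 1 decimal ending where the other 13 carry 2, and values within those 13 are given beside the relations between mice.

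The 2 members of the erythroid hairpin pair spanned several-fold ranges within each group. The level of miR-451a was lowest at 8.61, had a median of 9.55 and was highest at 12.19 in tumor mice. In tumor-free mice it ran from 9.50 over a median of 9.80 to 11.18, and the 3 wild-type mice stood at 9.62, 11.64 and 10.55. The 3 groups overlapped, and tumor mice held both the lowest and the highest value. In raw cycles, miR-451a was read at Ct 18.1 to 22.2 in tumor mice, 18.3 to 20.1 in tumor-free mice and 16.5 to 19.4 in wild-type mice.

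miR-144-3p, its neighbor, stood at 4.52, 6.64 and 8.63 in tumor mice (lowest, median and highest). It stood at 5.10, 6.16 and 7.84 in tumor-free mice by the same measures, and at 6.20, 9.54 and 6.56 in the 3 wild-type mice. The groups overlapped, and wild-type replicate 2 was above all other mice. miR-144-3p varied most of the 6 members within groups, with a pooled SD of 1.34 that ranked 32 from the most variable of 252 assays, against a median of 0.853 over these assays. The pooled SD of miR-451a was 1.06.

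Of the miR-15/16 family members, miR-16-5p had a lowest, median and highest level of 8.42, 8.90 and 11.11 in tumor mice. These values were 8.72, 8.83 and 10.19 in tumor-free mice, and the wild-type mice stood at 9.98, 11.09 and 10.42. In all, 5 tumor-free mice lay close together below all wild-type mice, and the other 2 lay within the wild-type range. miR-15b-5p stood at 0.75, 3.02 and 3.96 in tumor mice, at 1.14, 2.09 and 3.56 in the tumor-free group, and at 3.05, 6.20 and 3.31 in the wild-type mice. In 6 of 7 tumor-free mice miR-15b-5p was below all wild-type mice, and wild-type replicate 2 was far above the rest.

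miR-185-5p, also found in red blood cells, varied least of the members, with a pooled SD of 0.555 that ranked 225 of 252. Its lowest, median and highest levels were 2.01, 2.47 and 4.02 in tumor mice. They were 1.33, 1.77 and 2.47 in tumor-free mice, and the wild-type mice stood at 3.34, 3.32 and 2.36. In 3 of 7 tumor mice it was above all tumor-free mice, the highest being replicate 5, and in 6 of 7 tumor-free mice it was below all wild-type mice. miR-3107-5p stood at 4.36, 5.56 and 8.04 in tumor mice, at 4.70, 5.12 and 6.64 in the tumor-free group and at 5.50, 7.77 and 6.07 in the wild-type mice. Its groups overlapped, and tumor replicate 5 was again the highest of all. The plot of levels by mouse shows these values for the 6 members.

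**Figure D1:**
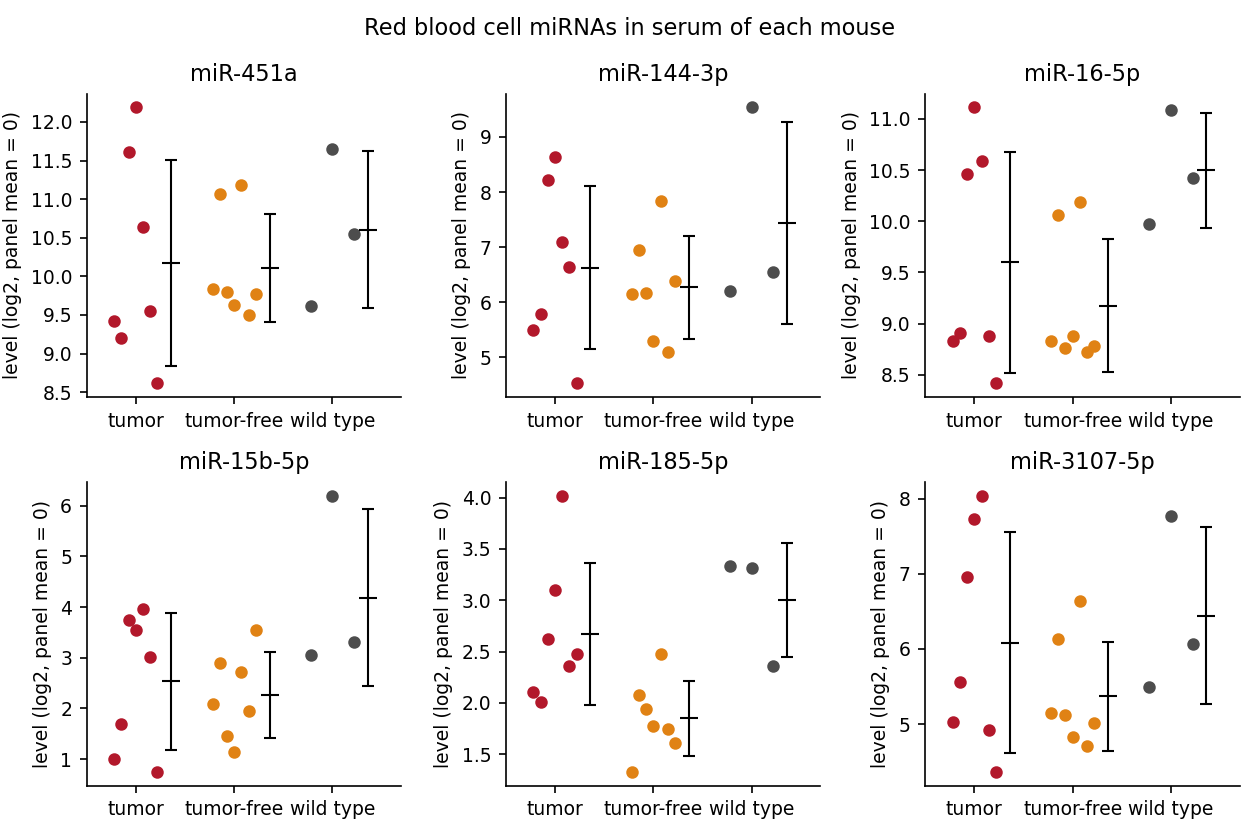
Level of each of the 6 miRNAs (log2, mean of the shared panel assays set to 0) in the serum of every mouse, with tumor, tumor-free and wild-type groups from left to right. Points are mice in order of replicate number, and the bars beside them give the mean and SD (n = 7, 7 and 3). All groups overlap for all 6 miRNAs, and miR-451a spans 8.61 to 12.19 among tumor mice alone.

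Tumor mice were compared with tumor-free mice, both transgenic, to ask whether red blood cell miRNAs differ with tumors. None of the 6 members passed: in limma, with Benjamini-Hochberg adjustment over 338 assays and a threshold of 0.05, 0 of 6 were called, against 1.48% of all assays. At an unadjusted p under 0.05, 1 of 6 was called by limma and 1 of 6 by exact permutation per assay, against 16.9% of all assays by both. That member was miR-185-5p, at 2.67 ± 0.69 with tumors and 1.85 ± 0.36 without (SD, n = 7 each), a log2 difference of 0.82 (SE 0.35, 1.77-fold higher, limma adjusted p = 0.242, exact permutation p = 0.00874, adjusted p = 0.128). The difference of miR-185-5p was 0.35 scaled to miR-23a-3p alone, 0.46 with raw Ct and 0.59 to 0.93 without 1 mouse at a time. Its unadjusted limma call was lost under 6 alternatives, which were raw Ct, the spike-ins, the reference miRNAs, miR-23a-3p alone, miR-451a alone and the decimal endings as a term. It was also lost without tumor replicate 4 or 5 and without tumor-free replicate 1 or 7.

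The other 5 members had limma adjusted p of at least 0.588 between tumor and tumor-free mice. miR-451a stood at 10.18 ± 1.33 with tumors and 10.11 ± 0.70 without (SD, n = 7 each), a log2 difference of 0.06 with a 95% interval from -1.06 to 1.19. The differences were 0.36 (SE 0.65) for miR-144-3p, 0.42 (SE 0.46) for miR-16-5p, 0.27 (SE 0.61) for miR-15b-5p and 0.72 (SE 0.58) for miR-3107-5p, and the highest adjusted p was 0.931. All 6 differences were above 0, as were those of 55.6% of all assays, and their median was 0.39, against 0.14 over all assays. These signs moved with the scaling: with raw Ct miR-451a differed by -0.30 and miR-15b-5p by -0.09, and without tumor replicate 3 or 4 miR-451a differed by -0.17 or -0.27. Intervals of this width hold changes of more than a cycle in either direction for miR-451a.

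Tumor-free transgenic mice were compared with wild-type mice to ask about the transgene without tumors. In limma 0 of 6 members passed, against 0.592% of all assays, and 3 of 6 had an unadjusted p under 0.05 by limma, against 22.5%, and also by exact permutation, against 25.1%. These 3 were miR-15b-5p, miR-16-5p and miR-185-5p. miR-15b-5p stood at 2.26 ± 0.85 in tumor-free mice and 4.19 ± 1.75 in wild-type mice (SD, n = 7 and 3). This was a log2 difference of -1.92 (SE 0.79, limma adjusted p = 0.176). miR-16-5p stood at 9.18 ± 0.65 in tumor-free mice and 10.50 ± 0.56 in wild type, a log2 difference of -1.32 (SE 0.59, limma adjusted p = 0.187). miR-185-5p stood at 1.85 ± 0.36 in tumor-free mice and 3.00 ± 0.56 in wild type, a log2 difference of -1.15 (SE 0.45, limma adjusted p = 0.175). The 6 tumor-free mice below all wild-type mice for miR-15b-5p were not the same 6 as for miR-185-5p, as replicate 7 was the exception for the first and replicate 5 for the second. No exact permutation p can lie below 0.00833 with 3 mice against 7.

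The erythroid pair and miR-3107-5p were also lower on average in tumor-free mice, within their error. The log2 differences were -0.49 (SE 0.69) for miR-451a, -1.17 (SE 0.84) for miR-144-3p and -1.08 (SE 0.75) for miR-3107-5p, with limma adjusted p from 0.410 to 0.686. Wild-type replicate 2 had the most miR-144-3p and miR-15b-5p of all mice. Without it the differences were 0.03 for miR-451a, -0.11 for miR-144-3p, -0.92 for miR-15b-5p and -0.41 for miR-3107-5p, while miR-16-5p differed by -1.02. All 6 members were below 0 in this comparison with all mice, as were 49.1% of all assays, and their median was -1.16, against 0.03 over all assays.

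Tumor mice were set against the same 3 wild-type mice, so this comparison is not independent of the one before. In limma 0 of 6 members passed, against 8.28% of all assays. At an unadjusted p under 0.05, limma called 1 of 6, miR-15b-5p, against 25.1% of all assays, and exact permutation called 0, against 13.3%. The log2 difference of miR-15b-5p was -1.65 (SE 0.79, limma adjusted p = 0.197), with levels of 2.53 ± 1.36 in tumor mice and 4.19 ± 1.75 in wild-type mice (SD, n = 7 and 3). The other members differed by -0.43 (miR-451a), -0.81 (miR-144-3p), -0.90 (miR-16-5p), -0.34 (miR-185-5p) and -0.36 (miR-3107-5p), all below 0, as were 45.9% of all assays. The median over the 6 was -0.62, against 0.19 over all assays. Without wild-type replicate 2, miR-451a differed by 0.09, miR-144-3p by 0.25, miR-15b-5p by -0.65 and miR-3107-5p by 0.30. In serum, fewer cells that release RNA and less RNA released per cell cannot be told apart.

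Against wild type, the size of the members' differences depended on the scaling. With raw Ct the 6 differences of tumor-free mice against wild-type mice lay between -1.51 (miR-451a) and -2.94 (miR-15b-5p), and those of tumor mice against wild-type mice between -1.72 (miR-185-5p) and -3.03 (miR-15b-5p). The median of all assays moved too, to -1.07 and -1.22 in these comparisons. Scaled to the spike-ins, the 6 differences lay between -1.64 and -3.07 for tumor-free mice and between -1.60 and -2.92 for tumor mice, with medians of all assays of -1.19 and -1.08. Limma called 0 of 6 members in each of these 4 fits. For tumor-free against wild-type mice this stood against 0.0% of all assays on the raw Ct scale and 0.0% on that of the spike-ins, and for tumor against wild-type mice against 4.44% and 2.37%. At an unadjusted p under 0.05, limma called 5 members on each of these scales in tumor-free against wild-type mice, against 18.6% and 21.6% of all assays. In tumor against wild-type mice it called 3 and 2 members, against 25.7% and 24.9%. With quantile normalization, in tumor-free against wild-type mice miR-144-3p was at -0.22, miR-16-5p at -0.23, miR-3107-5p at -0.43 and miR-451a at 0.23, while miR-15b-5p was at -1.50 and miR-185-5p at -1.12. The plot of differences under 4 scalings shows the shift.

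**Figure D2:**
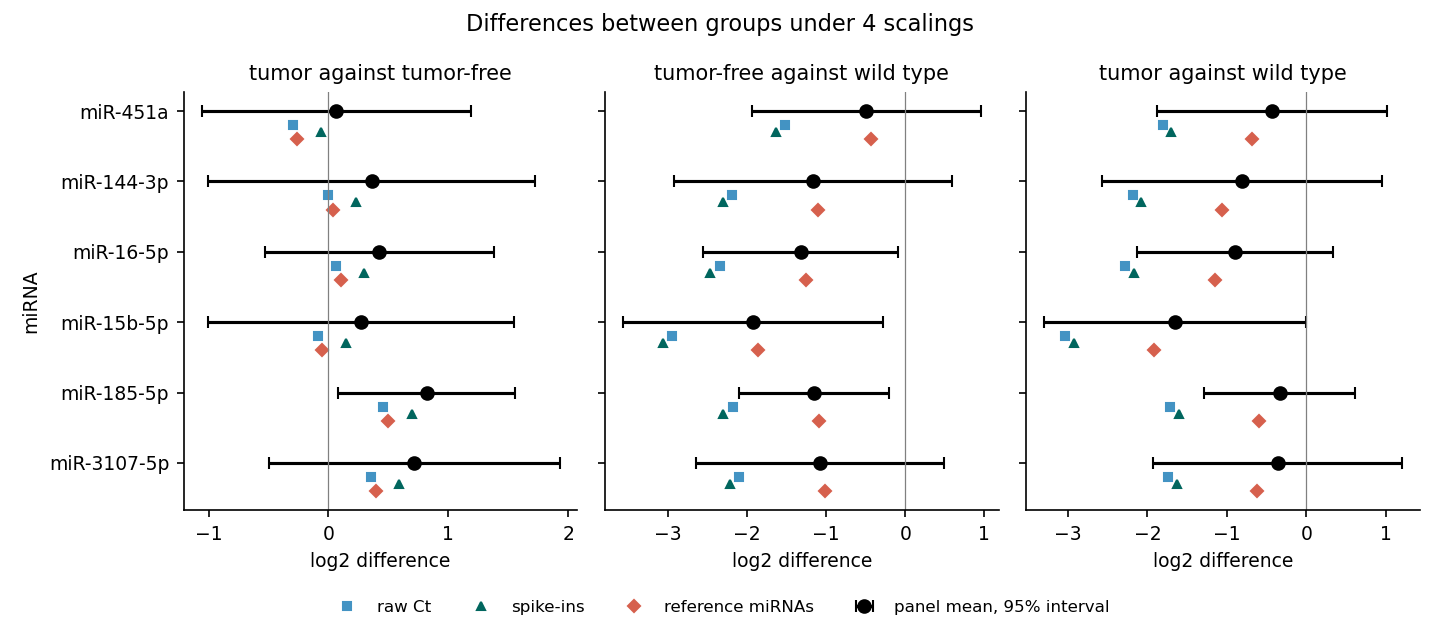
Log2 difference between groups for each member, in 3 comparisons from left to right. Black points with bars give the difference of levels relative to the panel mean with its 95% interval from limma, and squares, triangles and diamonds give raw Ct, spike-in and reference miRNA scalings. All 6 members lie below 0 against wild type under each of these 4 scalings, while miR-451a lies on both sides of 0 between tumor and tumor-free mice.

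Although the groups overlapped, mice differed strongly from each other, and the members were asked whether they vary together. With each group's mean taken off, all 15 pairs of members had a Pearson r above 0 across the 17 mice, from 0.498 to 0.960 with a median of 0.785. By permutation within groups, with each pair adjusted over the 251 relations of the member named earlier in the order miR-451a, miR-144-3p, miR-16-5p, miR-15b-5p, miR-185-5p and miR-3107-5p, 11 of 15 pairs passed. When both members' adjustments had to pass the count was 10, and when either sufficed it was 12. A positive relation passed for 21.9% of these assays with miR-451a, 25.5% with miR-144-3p, 22.7% with miR-16-5p, 13.1% with miR-15b-5p, 4.38% with miR-185-5p and 21.5% with miR-3107-5p. The pairs of miR-185-5p with miR-451a, miR-144-3p and miR-15b-5p did not pass from either side. With miR-3107-5p it did not pass over its own relations (adjusted p = 0.0635) and did over those of miR-3107-5p (adjusted p = 0.0159), and with miR-16-5p it did not pass over its own (adjusted p = 0.0807) and did over those of miR-16-5p (adjusted p = 0.0199). The count of pairs was 14 with raw Ct, where the shares of all assays were 32.7%, 31.5%, 45.0%, 35.1%, 80.1% and 31.1% in the same order. With Spearman's rho it was 11, where 0.398% to 25.5% of assays passed depending on the member. Without wild-type replicate 2 it was 10 (3.98% to 19.5% of assays), without tumor replicate 5 it was 12 (0.0% to 28.7%), and among the 13 mice with 2 decimal endings it was 10 (0.398% to 18.3%). The plot of deviations by mouse shows the members moving together.

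**Figure D3:**
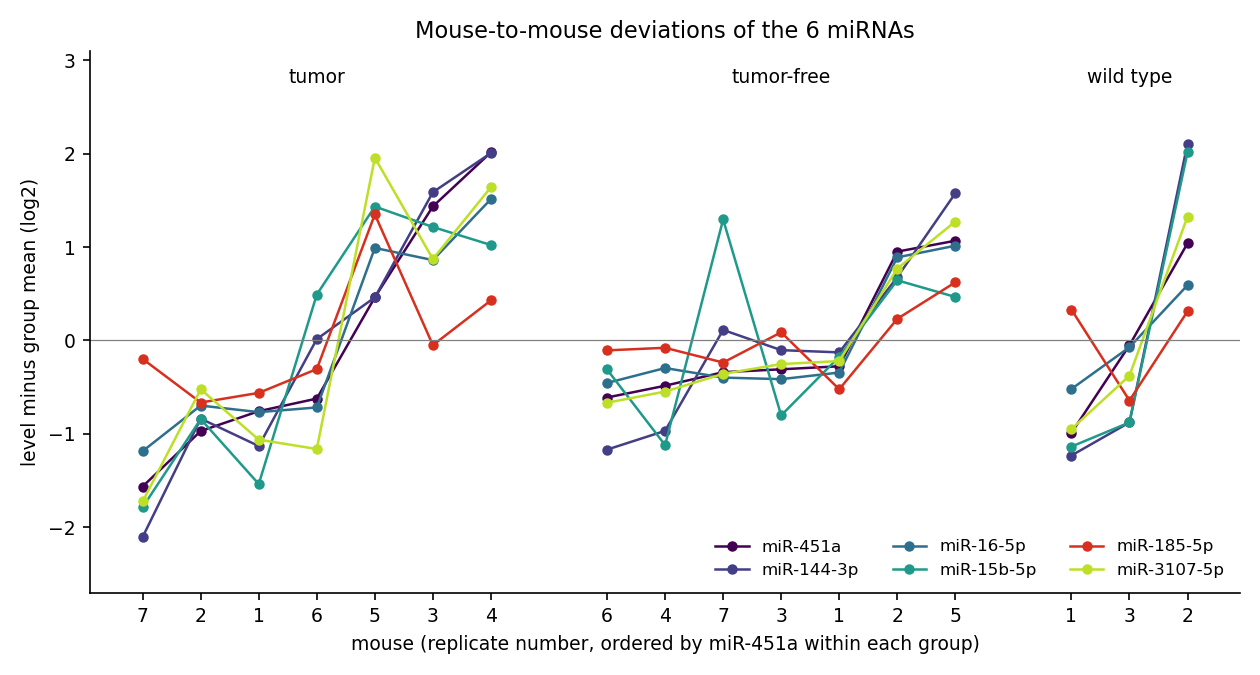
Level of each member minus the mean of its group (log2) in every mouse, with tumor, tumor-free and wild-type mice from left to right and mice ordered by miR-451a within each group. Lines join the values of a miRNA, and miR-185-5p is in red. Most lines climb together within each group, while miR-15b-5p stands alone in tumor-free replicate 7.

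miR-16-5p followed miR-451a most closely of all 251 assays (r = 0.96 with permutation p = 2e-05 and adjusted p = 0.000502, rho = 0.93 at permutation p = 9e-05, and r = 0.95 leaving out the 2 mice farthest from the median of miR-451a). miR-144-3p, from the adjoining hairpin, ranked 4 (r = 0.93 with permutation p = 1e-05 as the smallest possible and adjusted p = 0.000502, rho = 0.87 at permutation p = 0.00014, and r = 0.91 leaving out those 2). miR-3107-5p ranked 8 (r = 0.90 with permutation p = 0.00013 and adjusted p = 0.00148, rho = 0.90 at permutation p = 8e-05, and r = 0.90 leaving out those 2). miR-15b-5p ranked 40 (r = 0.76 with permutation p = 0.00332 and adjusted p = 0.0110, rho = 0.73 at permutation p = 0.00829, and r = 0.75 leaving out those 2). miR-185-5p ranked 75 and did not pass (r = 0.51 with permutation p = 0.0845 and adjusted p = 0.143, rho = 0.53 at permutation p = 0.0667, and r = 0.55 leaving out those 2). So 4 of 5 members passed with a positive r, against 21.9% of the 251 assays, and a further 20.7% passed with a negative r.

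These relations were also present without scaling, where a shared difference in RNA yield adds to every r. With raw Ct, r with miR-451a was 0.96 for miR-16-5p, 0.95 for miR-144-3p, 0.95 for miR-3107-5p, 0.87 for miR-15b-5p and 0.76 for miR-185-5p, and all 5 passed, against 32.7% of assays. The last had a permutation p of 0.00796 and an adjusted p of 0.0256. Among the 13 mice with 2 decimal endings, with levels relative to the panel, r was 0.96, 0.93, 0.89, 0.82 and 0.43 for the same members. Within the 7 tumor mice r was 0.96, 0.97, 0.86, 0.82 and 0.54, and within the 7 tumor-free mice it was 0.99, 0.90, 0.99, 0.48 and 0.78. miR-15b-5p and miR-185-5p changed places between these groups, and this difference was not tested.

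**Figure D4:**
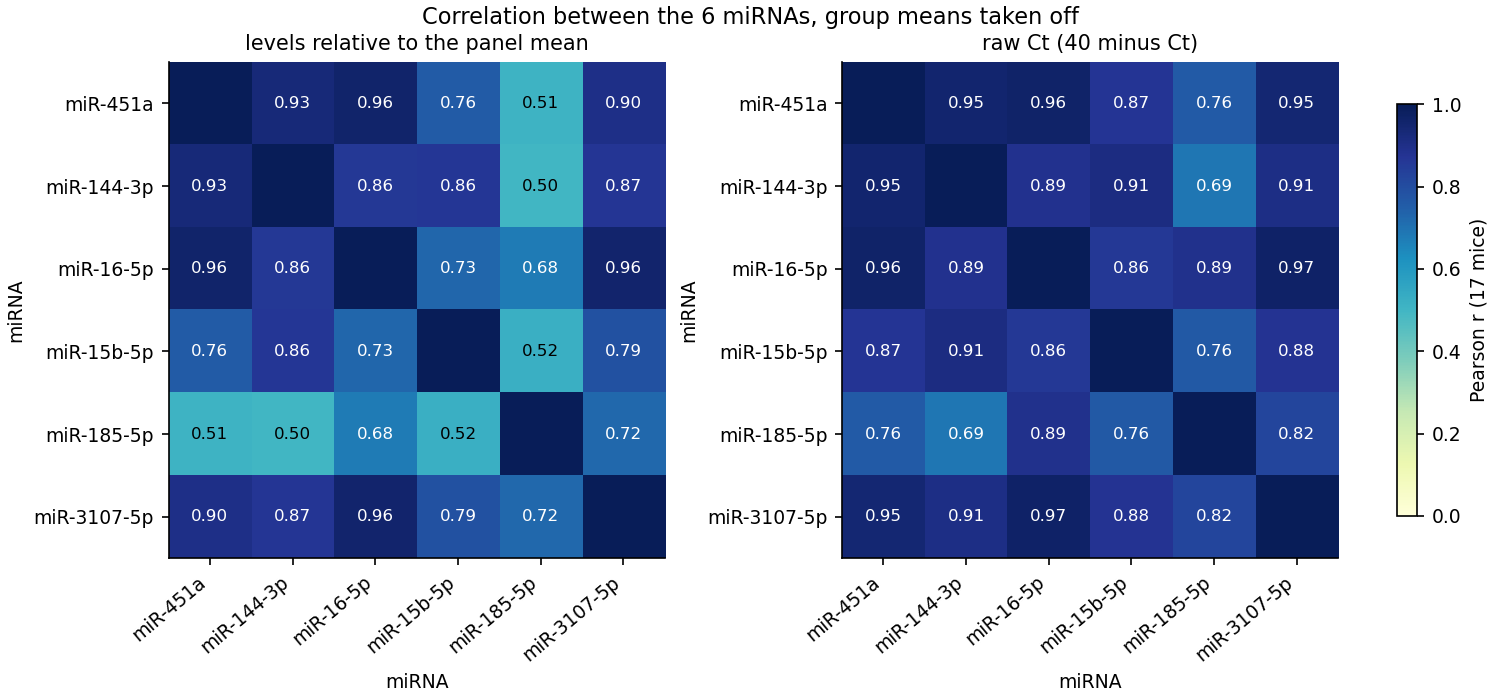
Pearson r between the 6 miRNAs over 17 mice with group means taken off, for levels relative to the panel mean (left) and raw Ct (right). The color scale runs from 0 to 1. The left panel runs from 0.498 to 0.960, with the lowest values in the row of miR-185-5p, and the right panel from 0.688 to 0.969.

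Panel miRNAs with the seed of miR-16-5p that are not members, 3 in all, took different courses. miR-15a-5p, made from the hairpin next to Mir16-1, ranked 3 of 251 (r = 0.93 with permutation p = 3e-05 and adjusted p = 0.000628, rho = 0.89 at permutation p = 0.00013, and r = 0.94 leaving out the 2 farthest mice; r = 0.96 with raw Ct). miR-195a-5p, which differs from miR-16-5p outside the seed, ran the opposite way (r = -0.80 with permutation p = 0.00033 and adjusted p = 0.00237, rho = -0.79 at permutation p = 0.00047, and r = -0.82 leaving out the 2 farthest), and its r was 0.31 with raw Ct. miR-322-5p was not related (r = 0.23 with permutation p = 0.474, rho = 0.20 at permutation p = 0.485, and r = 0.41 leaving out the 2 farthest). A list of 5 opposite arms of members' hairpins was added after the data were seen, and 3 of them were on the panel. These 3 passed: miR-486-3p (r = 0.86), miR-15b-3p (r = 0.80) and miR-16-1-3p (r = 0.73), with adjusted p from 0.00158 to 0.0122. Leaving out the 2 farthest mice, r was 0.80, 0.76 and 0.49 in this order, and rho over all mice was 0.87, 0.79 and 0.59. Over the 251 assays, 21.9% passed with a positive r.

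A wider list of miRNAs found in red blood cells or their precursors was set against miR-451a. Of its 14 miRNAs, 12 were on the panel and 11 were detected in all mice, and their r with miR-451a ran from 0.63 to 0.94 with a median of 0.86. By permutation 10 of 11 passed, all positive, against 21.9% of the 251 assays, and miR-19b-3p did not (r = 0.63, adjusted p = 0.0551). Its 4 most abundant miRNAs were miR-93-5p (r = 0.92), miR-25-3p (r = 0.85), miR-19b-3p and miR-15a-5p. Between groups 0 of 12 passed in limma in each comparison. In the order tumor with tumor-free, tumor-free with wild-type and tumor with wild-type mice, 1.48%, 0.592% and 8.28% of all assays passed. At an unadjusted p under 0.05 limma called 0, 3 and 0 of the list, against 16.9%, 22.5% and 25.1% of all assays. The exact permutation test called 0 after adjustment in each, against 0.0% of all assays. Before adjustment it called 0, 5 and 0, against 16.9%, 25.1% and 13.3%. The mean level of the list ran from 2.02 to 4.47 in tumor mice, 2.61 to 4.45 in tumor-free mice and 3.09 to 4.92 in wild-type mice.

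Lists for other sources did not follow miR-451a as a whole. Of the 251 assays, 21.9% passed with a positive r and 20.7% with a negative one. Of 7 platelet miRNAs, miR-222-3p passed with a positive r of 0.84 and miR-24-3p (r = -0.70) and miR-199a-3p (r = -0.91) with a negative one. The platelet miRNAs miR-223-3p (r = -0.46), miR-126a-3p (r = -0.23), miR-191-5p (r = 0.44) and miR-221-3p (r = -0.49) did not pass. Of 5 liver miRNAs, miR-802-5p passed with a negative r (-0.63), and the hepatocyte miRNA miR-122-5p did not pass (r = -0.47, adjusted p = 0.219). Neither did miR-192-5p (r = 0.05), miR-194-5p (r = -0.16) or miR-148a-3p (r = -0.59). Of 5 myeloid miRNAs, miR-23a-3p (r = -0.76) and miR-27a-3p (r = -0.78) passed, both negative. On the same list miR-142-3p (r = 0.64, adjusted p = 0.0704) and miR-142-5p (r = 0.51, adjusted p = 0.121) were positive and did not pass. With raw Ct miR-142-5p passed (r = 0.71, adjusted p = 0.0359), against 32.7% of all assays with a positive r. On that scale the platelet miRNAs miR-191-5p (r = 0.67, adjusted p = 0.0421) and miR-222-3p (r = 0.88, adjusted p = 0.00204) passed too. The myeloid list also holds miR-223-3p, which did not pass. Neither of the 2 lymphocyte miRNAs detected in all mice passed, miR-150-5p (r = -0.29) and miR-342-3p (r = -0.18). All 3 muscle miRNAs detected in all mice, miR-1a-3p, miR-133a-3p and miR-133b-3p, passed with r between -0.85 and -0.80. With raw Ct, 0.0% of the 251 assays passed with a negative r, and the 3 muscle miRNAs stood between -0.11 and -0.04. Since levels are centred on the panel, some assays must fall in a serum where others rise, and raw Ct has no such tie.

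The 5 assays that were not members and tracked miR-451a best were miR-20a-5p (r = 0.94), miR-15a-5p, miR-93-5p, miR-186-5p (r = 0.91) and miR-103-3p (r = 0.90). The 5 at the other end were miR-199a-5p (r = -0.91), miR-199a-3p, miR-125a-5p (r = -0.91), miR-125b-5p (r = -0.89) and miR-28a-5p (r = -0.88), and their r lay between 0.03 and 0.15 with raw Ct. The nearest assay outside the set was also found for each other member. miR-93-5p, of the miR-17 family, was nearest to both miR-16-5p (r = 0.98) and miR-3107-5p (r = 0.99), miR-186-5p to miR-144-3p (r = 0.95), miR-425-5p to miR-15b-5p (r = 0.92) and miR-345-5p to miR-185-5p (r = 0.89). These likenesses are over 17 mice with group means taken off.

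**Figure D5:**
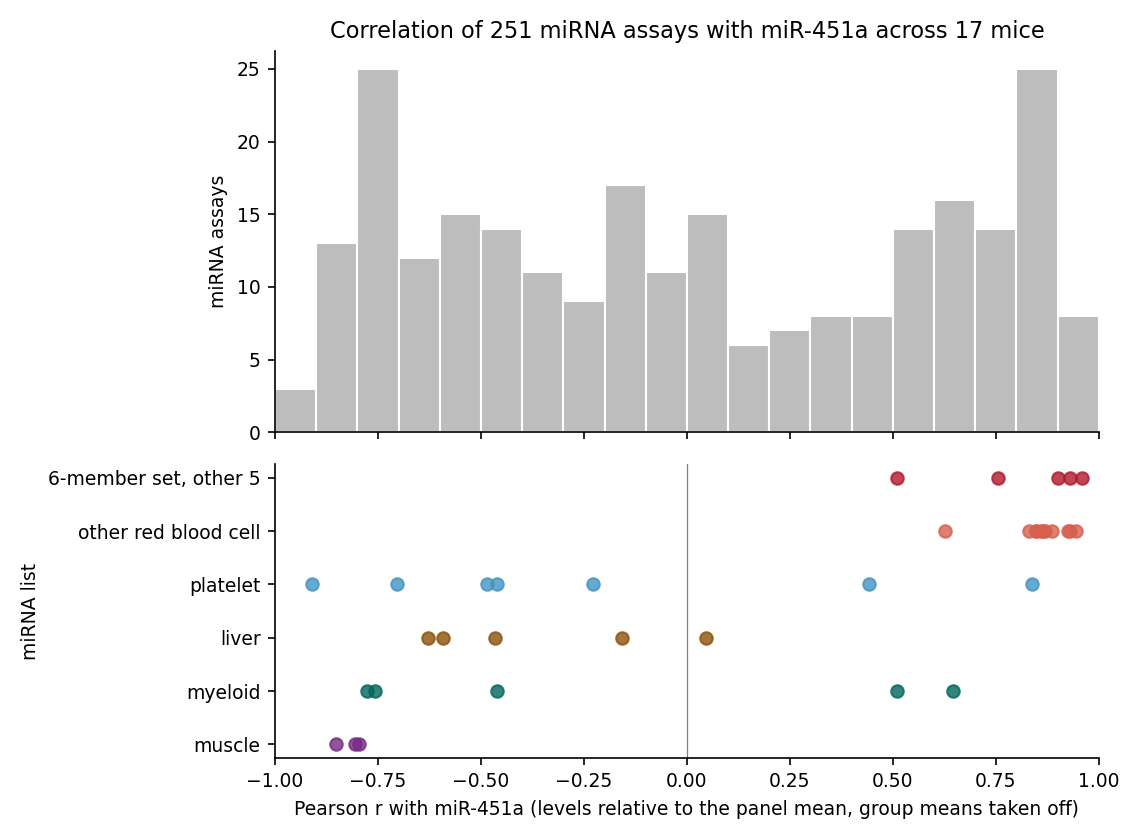
Pearson r of 251 miRNA assays with miR-451a across 17 mice, for levels relative to the panel mean with group means taken off. The upper panel is a histogram of all 251 assays, and the lower panel shows the other 5 members and 5 lists, 1 point per miRNA. The other members lie between 0.51 and 0.96 and the muscle miRNAs between -0.85 and -0.80.

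The difference of 2 Ct values from the same serum needs no scaling, and it was used to ask how fixed the proportions of the members are. The Ct of miR-16-5p minus that of miR-451a had a pooled SD of 0.337 cycles, the smallest of the 251 assays set against miR-451a, whose median was 1.34. It was 0.05, 0.59 and 1.15 cycles in tumor mice (lowest, median and highest), 0.75, 0.99 and 1.04 in tumor-free mice, and -0.36, 0.13 and 0.56 in the wild-type mice. Every one of the 7 tumor-free mice exceeded the 3 wild-type mice, and the tumor mice spread over both. For miR-3107-5p set against miR-451a in the same way, the pooled SD was 0.505 cycles (rank 8). Its differences were 2.60, 4.40 and 4.65 cycles in tumor mice, 4.54, 4.76 and 4.92 in mice without tumors, and 3.87, 4.12 and 4.48 in wild-type mice as lowest, median and highest. Here too no tumor-free mouse overlapped the wild-type mice, and tumor replicate 5 was the lowest.

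So relative to miR-451a, miR-16-5p and miR-3107-5p were lower in all 7 tumor-free mice than in all 3 wild-type mice, as were 4.75% of the 337 other assays. The limma test of this scale did not pass for either, with log2 differences of -0.83 (SE 0.45, adjusted p = 0.540) and -0.58 (SE 0.50, adjusted p = 0.670). Limma called 0 of 5 members on this scale in each comparison, against 0.0% of assays for tumor with tumor-free, 0.297% for tumor-free with wild-type and 0.0% for tumor with wild-type mice. At an unadjusted p under 0.05 the only one called was miR-15b-5p, in tumor-free against wild-type mice (log2 difference -1.43, adjusted p = 0.448), against 5.34%, 9.5% and 11.6% of assays. For miR-144-3p against miR-451a the pooled SD was 0.528 cycles (rank 12), with group SDs of 0.382 cycles in tumor, 0.437 cycles in tumor-free and 0.970 cycles in wild-type mice, and wild-type replicate 2 had the smallest gap at 2.11 cycles. The pooled SD was 0.820 cycles for miR-15b-5p (rank 53) and 0.909 cycles for miR-185-5p (rank 68).

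A common gauge of red blood cell RNA in serum, which subtracts the Ct of miR-451a from that of miR-23a-3p, is built on the most abundant member. It was 2.21, 3.13 and 7.09 cycles in tumor mice, 3.56, 3.88 and 5.54 in the tumor-free group (lowest, median and highest), and 3.71, 7.82 and 5.28 in the wild-type mice. By the limits of 5 and 7 cycles often used for it, 2 tumor, 2 tumor-free and 2 wild-type sera were above 5, and 1, 0 and 1 above 7. The mean of tumor mice differed by -0.41 cycles from tumor-free mice and by -1.63 from wild-type mice, and that of tumor-free mice by -1.23 from wild-type mice (exact permutation p = 0.614, 0.267 and 0.25, adjusted p = 0.614, 0.4 and 0.4). Relative to the panel, miR-23a-3p itself differed by 0.472, 1.204 and 0.732 in the same order (limma adjusted p = 0.588, 0.141 and 0.401). miR-451a differed by 0.06, -0.43 and -0.49, so relative to the panel miR-23a-3p had the larger part in each gauge difference. With raw Ct the larger part was that of miR-451a, which differed by -0.30, -1.81 and -1.51. The mean raw Ct of miR-23a-3p was 23.55 in tumor, 23.66 in tumor-free and 23.37 in wild-type mice. The sera above 7, tumor replicate 4 and wild-type replicate 2, had the highest miR-451a of their groups, a reading that itself enters the gauge.

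The partner of the gauge mattered for its sign. With miR-30c-5p in place of miR-23a-3p, the gauge differences were 1.06, 1.41 and 0.35 cycles in the same order, and the first 2 passed (exact permutation, adjusted p = 0.0297 and 0.0375). In these 2 comparisons miR-451a itself differed by 0.06 and -0.43 relative to the panel and by -0.30 and -1.81 with raw Ct. None of these passed in limma, so a lower reading of miR-30c-5p enters both calls and no rise of miR-451a was called. miR-30c-5p itself rose with miR-451a across mice (r = 0.81 with permutation p = 0.00238, rho = 0.75 at permutation p = 0.0052, and r = 0.62 leaving out the 2 farthest), whereas miR-23a-3p ran against it (r = -0.76 with permutation p = 0.00299, rho = -0.75 at permutation p = 0.0045, and r = -0.66 leaving out the 2 farthest). With raw Ct, r was 0.85 for miR-30c-5p and 0.14 for miR-23a-3p. With miR-16-5p in place of miR-451a, the gauge differences were -0.05, -2.10 and -2.05 cycles (adjusted p from 0.075 to 0.951).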

How the data were processed

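The authors deposited quantification cycles (Ct) per assay and serum, with no normalization, as the name of the deposited table says. Per the labels' protocols, RNA from 50 µL of serum was made into cDNA and run for 40 PCR cycles with SYBR Green on 2 serum miRNA panel plates. The sources used here do not say how thresholds and plate calibration were set. Of 365 assays, 8 were controls. Empty values were taken as not detected.

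Tests covered the 338 assays with a value in 5 or more tumor, 5 or more tumor-free and 2 or more wild-type mice. All 3 groups entered 1 limma fit (version 3.58.1, under R 4.3.3). Tests were two-sided, and p-values were adjusted by Benjamini-Hochberg within each comparison; every adjusted p for a group difference comes from this fit unless a permutation test is named. Exact permutation p-values are two-sided. Relations between mice used 100000 reorderings within groups, two-sided, adjusted over the 251 relations of each member, and the gauge of red blood cell RNA was adjusted over 3 comparisons. A cycle equals a factor of 2 only at full PCR efficiency. Replicate n of 7, 7 and 3 limits precision. Python 3.11.15, numpy 2.4.6 and pandas 2.3.3 were used, and the fit was tested on simulated data.

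The miRNAs named were the members, the 5 highest and 5 lowest r with miR-451a, each other member's nearest assay, and the most abundant of each list. Members and lists (red blood cell or erythroid, shared seed, platelet, liver, lymphocyte, myeloid, muscle) were chosen with earlier results of these data known. List miRNAs named outside this rule were chosen after their values were seen, and most of them passed. miR-30c-5p, on none of the lists, was named as another partner for the gauge and is also outside this rule. Alternatives were other scalings, detection filters, variance models, a block for the number in the labels, the decimal endings and leaving out each mouse. The alternatives for the count of member pairs were chosen after seeing the data. Whether the numbers in the transgenic labels mark litters or cages is not stated. The mice of wild-type and transgenic groups have no such shared number.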

Additional observations from a re-analysis of the deposited data

Results flagged for a closer look

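A pair of values stood far from their group by a test of the gap to the nearest mouse against the whole range, which was run on 28 sets of 7 mice and picks out about 1 in 20 by chance. Both were in tumor-free replicate 7 and concern miR-15b-5p. The Ct of miR-15b-5p minus that of miR-451a was 6.22 cycles in this serum, against 7.55 to 8.48 cycles in the other 6 tumor-free mice. The Ct of miR-15b-5p minus that of miR-16-5p was 5.22 cycles, against 6.75 to 7.74 cycles in the others. The 2 values share the miR-15b-5p reading and are not independent. This serum is 1 of the 4 with 1 decimal ending. Its part in these values was not tested.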

How the results depend on the processing

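No member passed in tumor against tumor-free or tumor-free against wild-type mice under any alternative run, including without each mouse in turn. In tumor against wild-type mice 1 passed with reference miRNAs as the scaling, miR-15b-5p (-1.91, limma adjusted p = 0.0490, range over its alternatives 0.0490 to 0.738), against 6.21% of all assays, 21 of 338. Of the reference miRNAs, miR-103-3p (r = 0.90), miR-423-5p (r = 0.72) and miR-425-5p (r = 0.82) themselves followed miR-451a in the main run. The others, miR-191-5p (r = 0.44) and miR-423-3p (r = -0.01), did not pass. miR-425-5p was also the nearest assay to miR-15b-5p outside the set (r = 0.92). Differences of tumor against tumor-free mice that changed sign were, with raw Ct, -0.30 for miR-451a, -0.00018 for miR-144-3p and -0.091 for miR-15b-5p; with spike-ins, -0.061 for miR-451a; with reference miRNAs, -0.26 for miR-451a and -0.053 for miR-15b-5p; with miR-23a-3p alone, -0.41 for miR-451a, -0.11 for miR-144-3p, -0.047 for miR-16-5p and -0.20 for miR-15b-5p; and with quantile normalization, -0.14 for miR-144-3p. Against wild type, quantile normalization gave 0.23 for miR-451a in both comparisons, and scaling to miR-451a gave tumor mice 0.094 for miR-185-5p and 0.069 for miR-3107-5p. The number of members that followed miR-451a was 0 under quantile normalization (r of -1.0 for miR-16-5p and -0.22 for miR-185-5p), which by its construction gives the top ranks, held by miR-451a and miR-16-5p, fixed values. With reference miRNAs it was 3, and r was -0.17 for miR-185-5p. The cause was not tested. The share of all assays that passed is not given for either scaling, so the counts of 0 and 3 stand without it. The gauge turned to 1.06, 0.35 and 1.41 cycles with miR-30c-5p, and to 0.065 cycles for tumor against tumor-free mice with the panel mean. Without 1 mouse at a time, the number following miR-451a was 4 to 5 (5 without tumor replicate 5, where miR-185-5p passed at r = 0.61). The share of all assays that followed miR-451a was 27.1% without tumor replicate 5 and 18.7% without wild-type replicate 2. The shares without each of the other mice are not given. In tumor against tumor-free mice miR-451a then ran from -0.27 to 0.33, in tumor-free against wild-type mice from -0.99 to 0.026, and in tumor against wild-type mice miR-451a ran from -0.92 to 0.091, miR-144-3p from -1.42 to 0.25 and miR-3107-5p from -0.83 to 0.30. The gauge ran from -0.93 to -0.11, -2.17 to -0.12 and -2.58 to -0.52 cycles in the 3 comparisons. The number in the transgenic labels, which is not the replicate number, was also tried as a random block, with each wild-type mouse as its own block. The fitted correlation was 0.070, and 0 members passed in all 3 comparisons. These numbers are not shown to pair mice, and the block changed no call. The width of the intervals, over a cycle to each side for miR-451a, and the 3 wild-type mice limit what can be seen.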
